A study of Mus musculus with 8 samples.

Results

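Ribosomal protein genes were taken from the distal lung epithelium of α7G and α7E260A:G mice with and without exposure to cigarette smoke (CS). The members were all genes whose symbol has the form of a cytosolic ribosomal protein (Rpl, Rps, Rplp or Rpsa) or of a mitochondrial ribosomal protein (Mrpl or Mrps), with rows named as pseudogenes left out. This gave 158 of the 22756 genes counted. Of these, 82 were cytosolic (50 of the large subunit and 32 of the small subunit) and 76 were mitochondrial (47 of the large and 29 of the small subunit). A few subunits with other names, such as Fau and Gnb2l1, are not found by this rule and were followed as a separate list. Rpl41 has no row in the tables used here.

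The mice were adult, more than 90percent C57BL/6 by strain, and carried an IRES-tauGFP reporter cassette at the 3′ end of Chrna7, the gene of the nicotinic acetylcholine receptor α7. This reporter is shared by both genotypes. The α7G mice (Chrna7-IRES-tauGFP) have the normal receptor, and the α7E260A:G mice (Chrna7-E260A-IRES-tauGFP) carry in addition a point mutation that limits calcium signalling of the receptor. A point mutation leaves no trace in counts per gene, so which libraries carry it could not be checked. The pseudogene row Rps13-ps1, described at the end, differed between the labelled genotypes in every library, which does not show the mutation. Each genotype was either kept in room air (control) or exposed to side-stream smoke for 4 months, on 5 days of each week. Each of the 4 groups had 2 libraries, 1 of males and 1 of females, which gives 8 libraries of poly(A) RNA from distal lung cells depleted of CD45+ leukocytes. The number of mice behind a library is not given in the sources used here, so the p-values measure the spread between these libraries only, and sex cannot be told apart from the individual library within a group.

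Ribosomes are built from ribosomal RNA and a fixed set of proteins in a small subunit, which reads the mRNA, and a large subunit, which joins the amino acids. Cytosolic ribosomes translate nuclear-encoded mRNA and their protein mRNAs begin with a run of pyrimidines, the 5′TOP tract, through which mTOR signalling sets their translation. Mitochondrial ribosomes use a separate set of proteins that is also encoded in the nucleus, and they make the few membrane subunits of the respiratory chain that are encoded by mitochondrial DNA. Cytosolic ribosomal proteins are short, abundant, and copied many times in the genome as processed pseudogenes.

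The start site sequences in RefSeq (GRCm38.p6) were searched for the 5′TOP tract, taken as a C that lies between 5 bases before and 5 bases after the annotated start and is followed by at least 6 pyrimidines. These settings were chosen after several were tried. Start windows were found for 61 cytosolic and 67 mitochondrial members. The tract was present in 23 of the 61 (37.7%) and in 2 of the 67 (2.99%), and in 7.64% of the 27025 windows of all genes. With only 4 pyrimidines after the C the shares were 47.5%, 25.4% and 21.2%. Windows of 30 bases, from 10 bases before the start, are shown to let the classes be compared. Capitals mark the tract, and the mitochondrial members below have none.
Rps9 (chr7:3704031-3704060, + strand): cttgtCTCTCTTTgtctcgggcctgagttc
Rps21 (chr2:180257369-180257398, + strand): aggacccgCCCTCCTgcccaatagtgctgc
Rps15a (chr7:118116128-118116157, - strand): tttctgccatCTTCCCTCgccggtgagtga
Rplp2 (chr7:141447641-141447670, + strand): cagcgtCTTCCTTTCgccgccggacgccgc
Mrps21 (chr3:95871495-95871524, - strand): ctcccgtcgcgggactccgtagcttccgct
Mrpl52 (chr14:54426899-54426928, + strand): gggccacgcccacttccggttcccttgctc

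The second sequence feature that bears on every value is how much of a coding sequence (CDS) also occurs elsewhere. Each CDS was cut into all windows of 50 bases, and each window was looked for at other places in the NCBIM37 genome on both strands. The read length is not given in the sources used here, so 50 bases is a choice. The pair Rpl39 and Rpl39l, which encode near-identical small proteins of the large subunit, shows how far related genes can differ. Of the windows, 95 of 107 (88.8%) occur elsewhere for Rpl39 and 0 of 107 for Rpl39l. Capitals mark bases that lie in a window found elsewhere, which covers all 156 bases of the Rpl39 CDS with its stop codon and none of Rpl39l. The pair was identical at 133 of 156 positions (85.3%).
Rpl39 (NCBIM37, chrX:34622515-34625397, - strand): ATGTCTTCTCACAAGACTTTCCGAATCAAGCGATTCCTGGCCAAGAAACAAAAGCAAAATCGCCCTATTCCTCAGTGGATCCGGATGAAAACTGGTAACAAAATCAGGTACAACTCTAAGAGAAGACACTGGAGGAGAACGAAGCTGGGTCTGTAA
Rpl39l (NCBIM37, chr16:10170319-10175004, + strand): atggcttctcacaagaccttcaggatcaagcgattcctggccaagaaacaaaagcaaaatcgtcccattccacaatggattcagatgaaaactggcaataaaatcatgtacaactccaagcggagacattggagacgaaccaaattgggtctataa

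Levels are given as RPM, the counts of a gene per 1000000 counts of the library, and between genes only as RPM per kilobase of CDS. The classes differed in level and in spread. Tested cytosolic members had a median of 517 RPM per kilobase with a range from 10.9 to 5348, and tested mitochondrial members a median of 70.1 with a range from 25.8 to 249. High cytosolic levels were those of Rplp1 (5348), an acidic protein of the ribosomal stalk, and Rps3 (2680), which sits at the mRNA entry of the small subunit. The highest mitochondrial levels were those of Mrps21 (249), Mrpl52 (187) and Mrpl33 (175). The 10 cytosolic genes with most counts held 60.8% of the counts of their class, and the 10 mitochondrial genes 25.2% of theirs.

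The measured level of a cytosolic member followed its sequence uniqueness. The median cytosolic member had 84.8% of its windows also elsewhere, whereas the median mitochondrial member had 0.0% and 50 of the 76 had none. Across the 82 cytosolic genes Spearman's rho between this percentage and the level per kilobase was -0.65, and across the 76 mitochondrial genes it was -0.14. Genes share the 8 libraries and are not independent replicates. Without the tissue-restricted paralogs Rpl3l, Rpl10l and Rpl39l, which are unique but low, rho was -0.78 over 79 cytosolic genes. Of the 18 cytosolic genes with every window elsewhere, 2 reached a mean of 200 counts per library, and their median was 17.8 counts.

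Several of the best known ribosomal proteins had almost no counts in these tables. Rps6, the target of S6 kinase, had between 1 and 12 counts per library, and Rpl5, which with Rpl11 holds back Mdm2, had between 3 and 14. Both have 100% of their windows elsewhere. Rpl11 had 12 to 57 counts with 97.4% of windows elsewhere, and Rpsa, the laminin receptor precursor, had 18 to 64 with 99.9%. The same was seen for the mitochondrial Mrpl23, at 0 to 7 counts with 100% of its windows elsewhere. These counts describe what the counting kept, and no statement on how much of these mRNAs the cells held can be drawn from them.

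**Figure D1:**
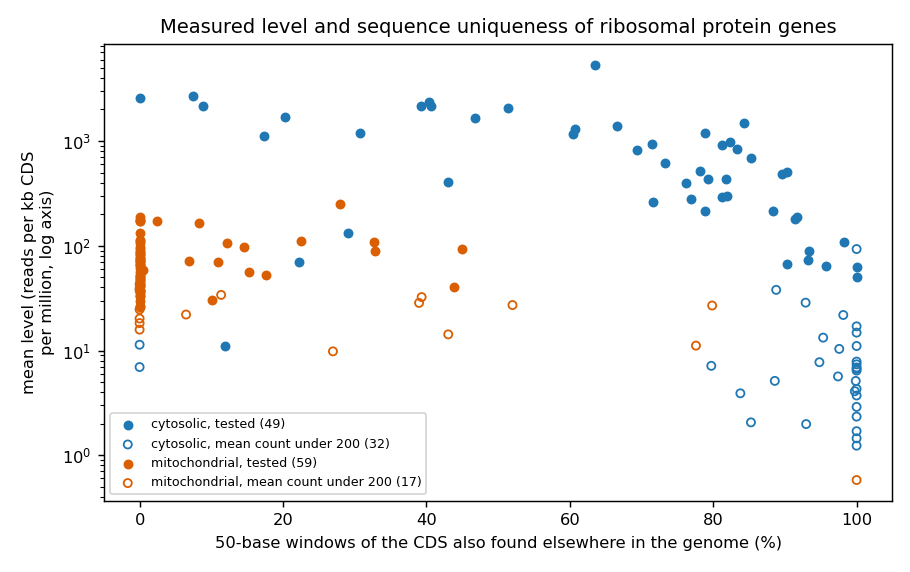
Mean level over the 8 libraries (RPM per kilobase of CDS, log axis) against the percentage of 50-base CDS windows found elsewhere, 1 point per gene, with filled points for tested genes and open points for genes with a mean under 200 counts. Cytosolic genes fall toward the right edge, where 18 of 82 have every window elsewhere, and Rpl10l, with 0 counts in every library, is not drawn.

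The paralogs of cytosolic ribosomal proteins were of low level. Rpl10l, a testis paralog of Rpl10, had 0 counts in all 8 libraries, for which a floor of 3 counts allows up to 0.27 to 0.37 RPM. Rpl3l, the paralog of Rpl3 in striated muscle, had 31 to 211 counts, with the highest value in the α7E260A:G control female and 40 counts in the α7G control female. Rpl39l had 3 to 42 counts, again highest in the α7E260A:G control female. Rpl22l1 (46.2 to 182 RPM), the paralog of Rpl22, and Rps27l (22.2 to 77.9 RPM), a target of p53, passed the filter together with Rpl7l1, a relative of Rpl7 (44.4 to 55.4 RPM). Rpl7l1 varied least of these. Rpl36al (17.5 to 58.2 RPM), the paralog of Rpl36a, also passed the filter but is not found by the symbol rule and was not counted as a member.

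Total counts lay between 8020726 and 10944100 per library, and the 95% Wilson interval of a class share spanned at most 0.0257 percentage points, which covers counting error only. The test used 7246 genes with a mean of at least 200 counts, which kept 49 of the 82 cytosolic members (29 large, 20 small) and 59 of the 76 mitochondrial members (40 large, 19 small). The labelled tissue was checked with marker lists. All 5 epithelial, 9 alveolar type II and 5 club cell markers were detected in the tables. Leukocyte markers summed to 4017 to 5327 RPM and were present in every library although CD45+ cells had been depleted. Alveolar macrophage markers summed to 27161 to 40903 RPM in the α7G libraries and to 47179 to 86266 RPM in the α7E260A:G libraries. In such bulk RNA, fewer cells of a type and less RNA per cell cannot be told apart.

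The share of all counts on ribosomal proteins was compared first. Cytosolic members took 1.87% and 2.19% of counts in the α7G control male and female, and 3.84% and 3.17% after CS. In α7E260A:G they took 1.29% in the control male and 3.29% in the control female, and 1.69% and 2.64% after CS. Both α7G CS libraries thus stood above both α7G controls, whereas the α7E260A:G control libraries enclosed both CS libraries of that genotype. The group means were 2.03% ± 0.225, 3.50% ± 0.476, 2.29% ± 1.42 and 2.17% ± 0.674 (SD, n = 2, in the same order).

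Mitochondrial members moved in the same libraries by less. Their share was 0.217% and 0.265% in the α7G controls and 0.368% and 0.345% after CS. In α7E260A:G it was 0.188% and 0.359% in the control male and female, and 0.228% and 0.321% after CS. The ratio of cytosolic to mitochondrial counts went from 6.85 in the α7E260A:G control male to 10.4 in the α7G CS male. The ratio of large to small subunit counts also moved for cytosolic members. It was 1.20 in both α7G controls and 1.13 and 1.15 in the male and female after CS. In α7E260A:G it was 1.23 and 1.24 in the control and CS males and 1.13 and 1.15 in the females. For mitochondrial members it was 1.89 to 2.02 over the 8 libraries.

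**Figure D2:**
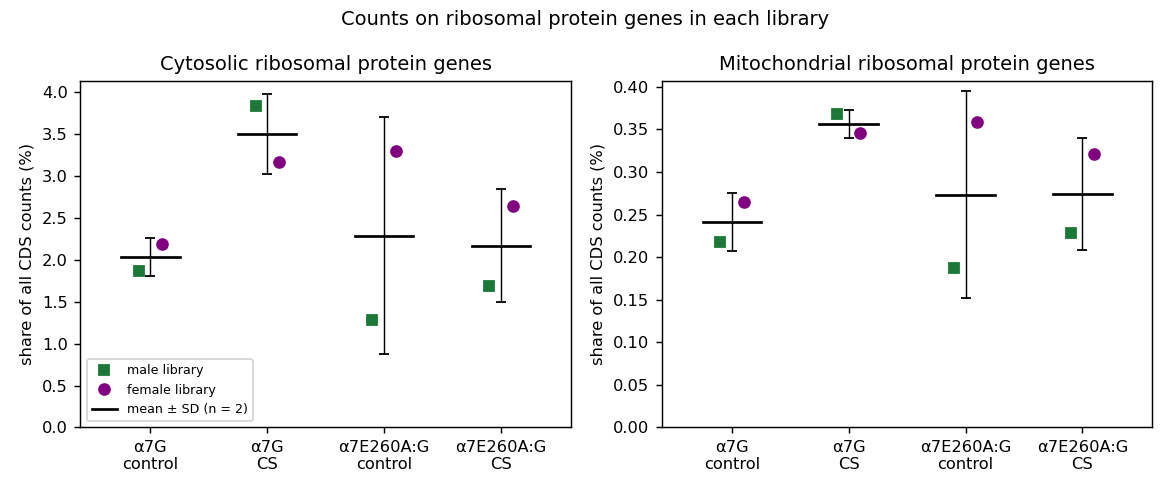
Share of all CDS counts (%) on cytosolic (left) and mitochondrial (right) ribosomal protein genes, with squares for male and circles for female libraries and lines for the mean ± SD of 2 libraries. The 2 α7G CS libraries lie above the 2 α7G controls in both panels, and the α7E260A:G controls lie at 1.29% and 3.29% for the cytosolic class.

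The response to CS in α7G mice was examined gene by gene. Of the tested members, 48 of 49 cytosolic and 59 of 59 mitochondrial genes had a log2 fold change above 0, against 48.0% of all 7246 genes. Of the other genes with a CDS under 600 bases, 93.6% were above 0 as well. The median log2 fold change was 1.00 for cytosolic members, 0.74 for mitochondrial members, 0.65 for the 703 other genes with a CDS under 600 bases, and -0.02 for all genes tested. None passed the threshold by edgeR's quasi-likelihood test (lowest adjusted p = 0.584), and 0.0% of all genes were called. At an unadjusted p under 0.05 there were 0 cytosolic and 4 mitochondrial members, Mrpl14, Mrpl4, Mrps12 and Mrps6, where 6.65% of all genes had such a p and 1.81% were higher with such a p. DESeq2 also called 0 members and 0.359% of all genes, with 8 cytosolic and 6 mitochondrial at an unadjusted p under 0.05. The share of all genes with such a p by DESeq2 is not given here, so its unadjusted counts have no background to be read against.

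The fit above estimates the spread over all 4 groups. With the 4 α7G libraries alone, 44 of 49 cytosolic and 29 of 59 mitochondrial members were called higher and 0 lower. In that fit 8.02% of all genes and 42.0% of the other genes with a CDS under 600 bases were called higher. Both CS libraries stood above both controls for 48 of 49 cytosolic and 52 of 59 mitochondrial members, against 23.9% of all genes and 76.0% of the other short genes. In both the male and the female pair, 48 cytosolic and 55 mitochondrial members were higher after CS. This was so for 27.9% of all genes and 79.7% of the other short genes. With 2 libraries against 2, each such separation rests on 4 values.

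Single members show the size of the difference. Rplp1 had 1047 and 1299 RPM in the control male and female and 2788 and 2362 RPM after CS, so the groups did not overlap. Its log2 fold change was 1.25 ± 0.64 (SE; edgeR adjusted p = 0.584). Rps21, a small subunit protein with the 5′TOP tract shown above, had 251 and 322 RPM in controls and 745 and 547 RPM after CS (log2 fold change 1.28 ± 0.71 SE). Rpl35 at the tunnel exit of the large subunit had 44.6 and 45.0 RPM in controls and 108 and 98.9 RPM after CS (log2 fold change 1.32 ± 0.65 SE). Rps25, which serves internal initiation on viral and some cellular mRNAs, had the largest cytosolic log2 fold change at 1.49 ± 0.77 (SE), from 22.3 and 22.8 RPM to 68.4 and 48.8 RPM. It has 98.2% of its windows elsewhere.

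Abundant members with a longer CDS differed by less. Rps3 had 1769 and 2061 RPM in controls and 3103 and 2698 RPM after CS, and Rpl4 of the tunnel wall had 1979 and 2205 RPM in controls and 2717 and 2442 RPM after CS. Their log2 fold changes were 0.71 ± 0.52 and 0.42 ± 0.38 (SE). Rpl7l1 changed by 0.21 ± 0.26 (SE). Rpl24 was the only cytosolic member with a log2 fold change below 0, at -0.44 ± 0.41 (SE), from 58.1 and 37.4 RPM to 38.4 and 26.4 RPM. With a CDS length offset these directions turned, to 0.058 for Rpl24 and -0.17 for Rpl7l1. Its annotated CDS of 3629 bases includes a transcript that reads through into a neighbouring gene, so its row need not stand for Rpl24 alone.

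Among mitochondrial members the highest log2 fold changes were those of Mrps14 (1.28 ± 0.64 SE), Mrpl14 (1.23 ± 0.48) and Mrpl54 (1.18 ± 0.59). Mrps14 lies in the head of the small subunit, and Mrpl14 lies at the subunit interface of the large subunit. Mrpl14 had 31.3 and 32.1 RPM in controls and 78.9 and 58.9 RPM after CS, and Mrps14 had 31.5 and 35.5 RPM in controls and 81.2 and 69.4 RPM after CS. None of the windows of these 3 genes occurs elsewhere. Mrpl3, Mrps30 and Mrps31 had the lowest log2 fold changes, 0.17 ± 0.33, 0.19 ± 0.29 and 0.25 ± 0.33 (SE). The groups overlapped for Mrpl3, with 45.9 and 46.4 RPM in controls and 54.6 and 41.4 RPM after CS. These lowest members have a CDS of 1062 to 1326 bases, and the 3 highest have 405 to 435 bases.

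Members with roles outside the ribosome followed their class. Of 13 such genes 9 were tested, and all 9 had a log2 fold change above 0 (median 0.96). Rpl13a, which silences inflammatory mRNAs after interferon-γ, had 1033 and 1343 RPM in controls and 2352 and 1865 RPM after CS. Rps19, the gene most often mutated in Diamond-Blackfan anaemia, had 229 RPM in each control and 576 and 417 RPM after CS. Mrpl12, which binds the mitochondrial RNA polymerase, had 30.4 and 36.4 RPM in controls and 57.3 and 52.1 RPM after CS. None of the 9 passed the threshold.

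**Figure D3:**
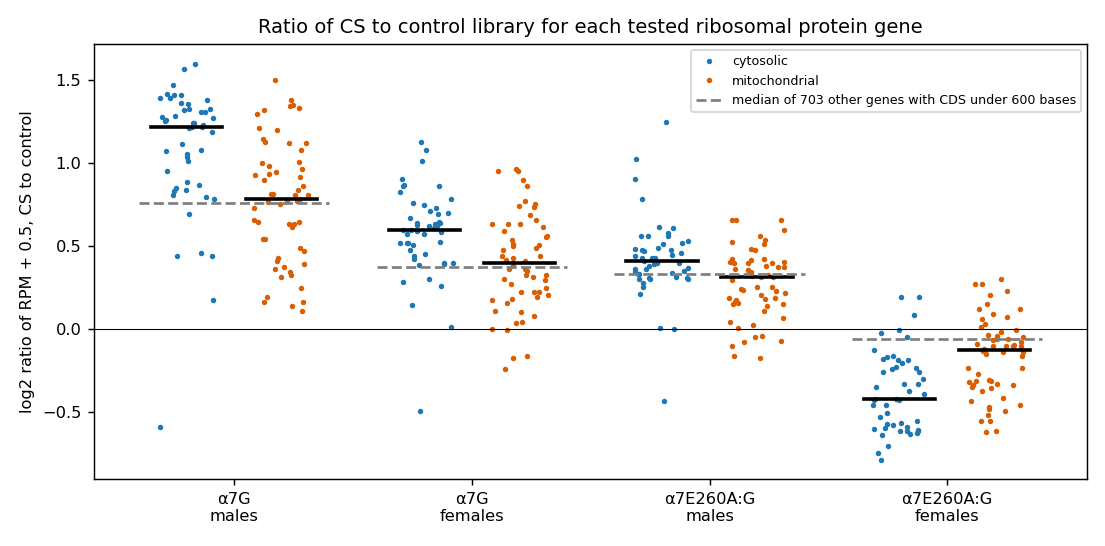
Log2 ratio of RPM + 0.5 of the CS library to the control library of the same sex for the 49 cytosolic and 59 mitochondrial members tested, 1 point per gene, with black lines at class medians and dashed lines at the median of 703 other genes with a CDS under 600 bases. Medians for cytosolic members are 1.22 and 0.60 in α7G males and females and 0.41 and -0.42 in α7E260A:G males and females.

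In α7E260A:G mice the male and the female pair of libraries differed in direction. The median log2 ratio of CS to control over cytosolic members was 0.41 in males, with 48 of 49 genes above 0, and -0.42 in females, with 3 of 49 above 0. For mitochondrial members it was 0.31 and -0.13. Above 0 were 51.5% of all genes in males and 66.9% in females. For the other genes with a CDS under 600 bases these shares were 86.3% and 42.4%, with medians of 0.33 and -0.06. In the fit the cytosolic and mitochondrial medians were -0.31 and -0.13. There 0 members were called and 0 had an unadjusted p under 0.05, where 0.0% of all genes were called and 1.68% had such a p. DESeq2 also called 0 members and 0.152% of all genes, with 0 at an unadjusted p under 0.05. These medians changed with whichever α7E260A:G library was left out. Without the α7E260A:G control female they were 0.93 and 0.68, and without the control male they were -0.94 and -0.61. Without the CS male they were 0.07 and 0.19, and without the CS female -0.85 and -0.51.

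Few members kept apart by group in α7E260A:G. Rpl3 among cytosolic and Mrpl45 among mitochondrial members were higher in both CS libraries than in both controls, against 15.7% of all genes. Mrpl3, Mrpl37 and Mrps30 were lower in both, against 2.76% of all genes. Rpl35 shows the more common pattern, with 29.5 and 113 RPM in the control male and female and 45.4 and 65.6 RPM after CS. Both CS values lay between the control values. Red cell markers summed to 9374 RPM in the α7E260A:G CS male and to 198 RPM in the CS female, beside 616 to 1306 RPM in the controls, and their part was not tested.

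The difference between the CS responses of the genotypes was tested as an interaction. The log2 difference, α7E260A:G minus α7G, was below 0 for 48 of 49 cytosolic and 59 of 59 mitochondrial members. Above 0 were 53.0% of all genes, but only 10.2% of the other genes with a CDS under 600 bases. The medians of the 2 ribosomal classes were -1.41 and -0.81, with -0.69 for the other genes with a CDS under 600 bases. None was called by edgeR (lowest adjusted p = 0.995) or by DESeq2, and 0.0% of all genes were called by edgeR and 0.0414% by DESeq2. At an unadjusted p under 0.05 edgeR had 0 members and 1.42% of all genes. DESeq2 had 2 cytosolic and 1 mitochondrial members at such a p, and its share of all genes is not given here. The lowest values were those of Rpl35 (-1.86 ± 0.92 SE), Rps21 (-1.77 ± 1.00) and Mrpl52 (-1.76 ± 0.88), followed among mitochondrial members by Mrps14 and Mrpl54 (-1.46 ± 0.83). Without the α7E260A:G control female the medians were -0.06 and -0.03. Without the control male they were -2.10 and -1.27, and with the CS male of that genotype left out -1.03 and -0.54.

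Over both exposures the genotypes hardly differed in the class medians. The log2 fold change of α7E260A:G against α7G was above 0 for 12 of 49 cytosolic members (median -0.10) and for 29 of 59 mitochondrial members, against 56.0% of all genes. Comparing libraries matched for sex and exposure, the cytosolic medians were -0.56 for control males, 0.71 for control females, -1.24 for CS males and -0.28 for CS females. The median over both exposures was -0.72 for cytosolic members without the α7E260A:G control female, 0.17 without the control male, 0.07 without the CS male and -0.37 without the CS female. For mitochondrial members the same values were -0.35, 0.23, 0.17 and -0.19. By edgeR 0 members were called, where 0.0828% of all genes were called, and 2 cytosolic members, Rpl3 and Rpl34, had an unadjusted p under 0.05, both lower, as did 11.7% of all genes (4.73% lower). DESeq2 also called 0 members, where it called 5.74% of all genes. It had 2 cytosolic members at an unadjusted p under 0.05, and its share of all genes with such a p is not given here.

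Rpl3 and Rpl34 had the lowest log2 fold changes of α7E260A:G against α7G among the tested cytosolic members, and neither passed the threshold. They are 2 of 49 members, beside 4.73% of all genes that were lower at an unadjusted p under 0.05 by edgeR. This count does not set the class apart from all genes. Rpl3, a large subunit protein at the peptidyl transferase centre, lies at chr15:79908211-79913836 on the - strand (NCBIM37). In the males and females it had 95.0 and 81.1 RPM in α7G controls, 129 and 100.2 RPM in α7G after CS, 30.8 and 57.9 RPM in α7E260A:G controls, and 63.3 and 61.4 RPM in α7E260A:G after CS. Every α7E260A:G library lay below every α7G library, and it was the only member for which this held, against 5.12% of all genes. Its log2 fold change was -0.83 ± 0.28 (SE; edgeR adjusted p = 0.278). Of its windows 95.7% occur elsewhere, and which part of the CDS its counts come from was not measured.

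Rpl34 lies at chr3:130429749-130433316 on the - strand and had 269 and 336 RPM in α7G controls and 673 and 506 RPM in α7G after CS. In α7E260A:G it had 165 and 248 RPM in controls and 122 and 284 RPM after CS. The α7E260A:G female after CS overlapped the α7G control male, and all other α7E260A:G values were lower than every α7G value. Its log2 fold change was -0.94 ± 0.36 (SE; edgeR adjusted p = 0.362), and 71.5% of its windows occur elsewhere. In the α7E260A:G males Rpl34 was lower after CS than in the control, in contrast to the class median. Rps15a, a small subunit protein, followed with -0.53 ± 0.50 (SE) and values from 194 to 762 RPM in α7E260A:G and 443 to 1032 RPM in α7G.

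The dependence of counts on CDS length, described below, was removed in an alternative fit. There Rpl3 (adjusted p = 0.0499) and Rpl34 (adjusted p = 0.0165) were called lower by edgeR, while 6.57% of all genes were called. With a block for sex added, Rps15a was called as well (adjusted p = 0.0473), with 9.12% of all genes called. An offset by transcript length called only Rpl34 among the members (adjusted p = 0.0399), with 4.24% of all genes called. In the fit without the length term, leaving out each library in turn gave log2 fold changes of -1.22 to -0.62 for Rpl3, -1.38 to -0.66 for Rpl34 and -1.34 to -0.20 for Rps15a. Rpl3 was called in 1 of these 8 fits, without the α7E260A:G control female (adjusted p = 0.0275, with 3.63% of all genes called), and its adjusted p was 0.105 to 0.819 in the others. Rpl34 and Rps15a were called in none of the 8. Markers also moved with genotype. All 17 alveolar macrophage markers were higher and 0 of 5 epithelial, 0 of 9 alveolar type II, 0 of 5 club, 0 of 5 T cell, 0 of 4 B cell and 0 of 5 endothelial markers were higher in α7E260A:G, and their part in the values of Rpl3 and Rpl34 was not tested.

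Among mitochondrial members no genotype difference stood out. Mrpl41 (0.48 ± 0.39 SE), Mrpl33 (0.46 ± 0.44) and Mrps18c (0.35 ± 0.45) had the highest log2 fold changes of α7E260A:G against α7G. Mrpl48 (-0.51 ± 0.41), Mrpl34 (-0.43 ± 0.45) and Mrps23 (-0.29 ± 0.29) had the lowest, and no mitochondrial member separated the genotypes without overlap, where 2.97% of all genes were higher and 5.12% lower in that way.

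**Figure D4:**
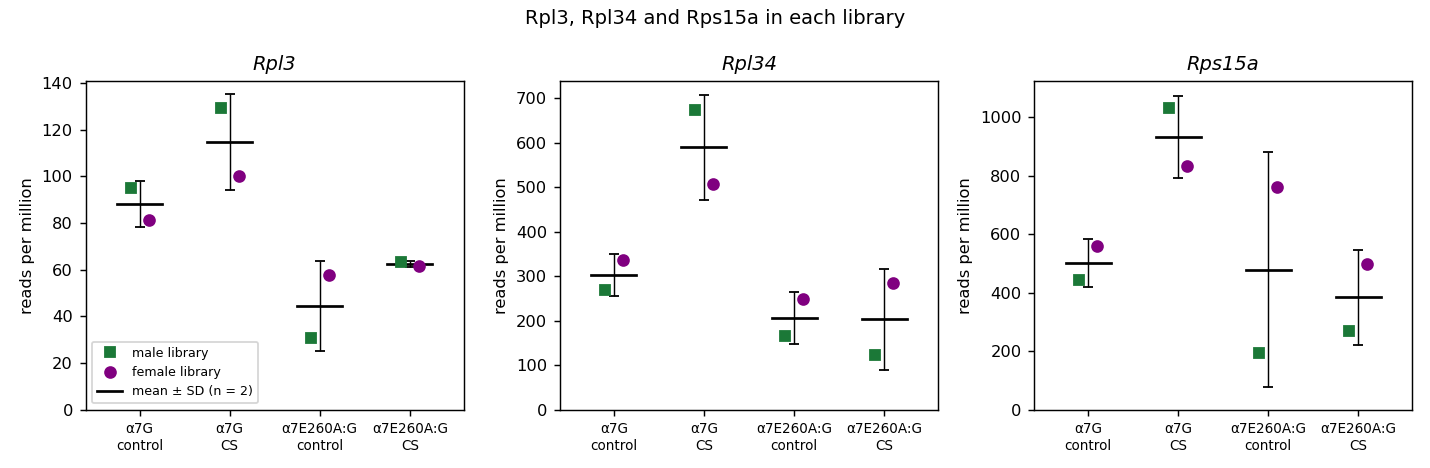
RPM of Rpl3, Rpl34 and Rps15a in each library, with squares for male and circles for female libraries and lines for the mean ± SD of 2 libraries. For Rpl3 the α7E260A:G libraries (30.8 to 63.3 RPM) all lie below the α7G libraries (81.1 to 129 RPM), while for Rps15a the genotypes overlap.

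Ribosomal proteins were then set beside other short transcripts, because the libraries differed in how counts depended on CDS length. The median CDS was 474 bases for cytosolic and 582.5 for mitochondrial members, and 1560 for the other genes tested, of which 9.85% were under 600 bases. For each library the deviation of log2 RPM + 0.5 from the gene's mean was fitted against log2 CDS length over the other 7138 genes. The slope per doubling of length was 0.22 and 0.06 in the α7G control male and female and -0.24 and -0.20 after CS. In α7E260A:G it was 0.41 in the control male, -0.23 in the control female, and 0.18 and -0.20 after CS. Libraries with a negative slope had relatively more counts on short genes.

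The same slopes were seen within the ribosomal classes. Over the 49 cytosolic members they ranged from -0.33 in the α7E260A:G control female to 0.26 in the α7E260A:G control male, and over the 59 mitochondrial members from -0.26 in that female to 0.25 in the α7G control male. In each library the sign was that of the other genes. The order of the libraries by cytosolic share and by slope was much the same, with the α7E260A:G control male at one end and the α7G CS male and the α7E260A:G control female at the other. The part of length in the differences between libraries was not tested beyond the comparison that follows.

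Within bands of CDS length, ribosomal proteins mostly had a larger median response to CS in α7G than other genes of the same band. From 300 to under 450 bases the median log2 fold change was 1.09 for 17 cytosolic members, 0.99 for 15 mitochondrial members and 0.75 for 257 other genes. From 600 to under 900 bases it was 0.82, 0.62 and 0.34 (12, 13 and 825 genes). From 900 bases on it was 0.59 and 0.39 for 7 and 14 members but -0.14 for 5610 other genes. This last band has no upper limit, and the longest mitochondrial CDS has 1330 bases. Values taken from it, here and below, are therefore not matched for length. The medians fell with length from 300 bases on in all 3 sets, and the cytosolic median stayed above the others in every band. The mitochondrial median was below that of other genes only under 300 bases (0.88 for 2 members, 0.91 for 104 other genes).

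The difference of each member from the median of other genes in its band was 0.41 for the median cytosolic member (47 of 49 above 0) and 0.31 for the median mitochondrial member (52 of 59 above 0). Against the 100 other genes nearest in CDS length these medians were 0.43 and 0.26. Against other genes of the band with a mean of at least 2000 counts they were 0.37 and 0.22. By sex the medians against the whole band were 0.49 in males and 0.36 in females for cytosolic, and 0.40 and 0.22 for mitochondrial members. In α7E260A:G the same values were 0.13 in males and -0.39 in females for cytosolic, and 0.07 and -0.19 for mitochondrial members. The male and the female pair thus differed in direction there also against the length bands. Each pair is 1 CS and 1 control library, so sex cannot be told apart from the individual library. For the interaction the median difference was -0.70 for cytosolic (1 of 49 above 0) and -0.41 for mitochondrial members (6 of 59 above 0), and for genotype it was -0.12 and -0.03. By pair the cytosolic genotype values were -0.37 for control males, 0.45 for control females, -0.70 for CS males and -0.25 for CS females, and the mitochondrial values were -0.02, 0.34, -0.34 and -0.12. These are descriptions, and no test was made over a class.

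**Figure D5:**
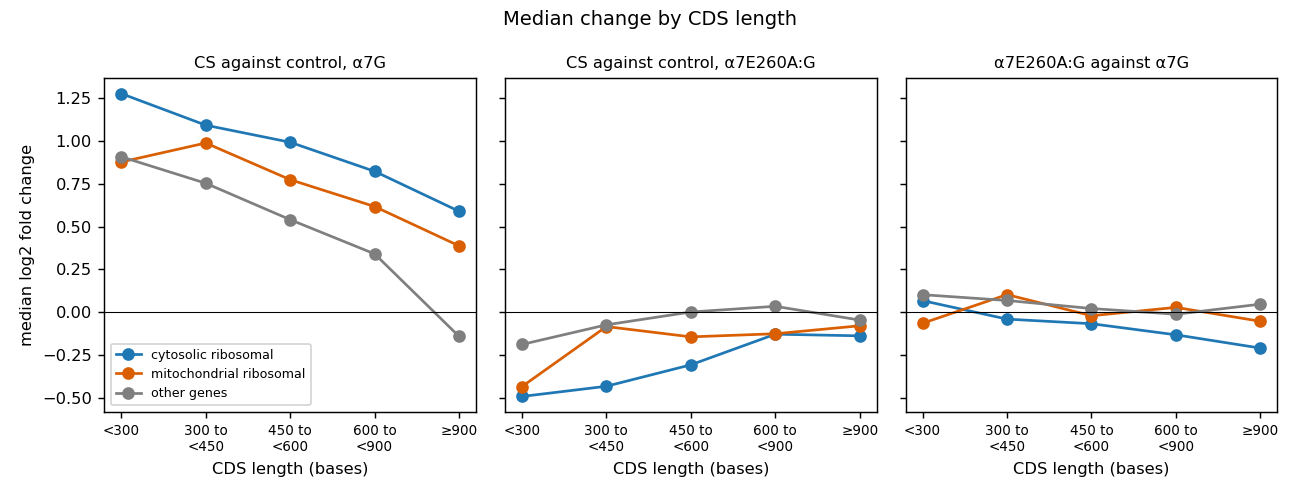
Median log2 fold change (vertical axis) by CDS length in bases for cytosolic members, mitochondrial members and other genes, for CS in α7G (left), CS in α7E260A:G (middle) and genotype over both exposures (right). In α7G the medians go from 1.28, 0.88 and 0.91 under 300 bases to 0.59, 0.39 and -0.14 from 900 bases on.

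Other parts of the translation and respiratory machinery were read from lists, none of whose genes passed the threshold in any comparison. For CS in α7G, all 43 tested short nuclear subunits of oxidative phosphorylation had a log2 fold change above 0 (median 1.07, median CDS 348 bases), as did all 33 tested subunits of other small complexes such as spliceosomal Sm proteins and the proteasome (median 0.80, 603 bases). Ndufb2 (1.34 ± 0.54 SE), a complex I subunit, and Snrpg (1.56 ± 0.80 SE), an Sm protein, were highest in their lists. Their median differences from other genes in the same length band were 0.31 and 0.34, beside 0.41 and 0.31 for the ribosomal classes. A response above that of the length band was therefore measured for these lists too.

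The non-ribosomal mRNAs that carry a 5′TOP tract are longer, with a median CDS of 1312.5 bases. Of 18 tested, 16 had a log2 fold change above 0 (median 0.48), and the median difference from their length bands was 0.50. Tpt1, the translationally controlled tumour protein, was highest (1.06 ± 0.55 SE). The initiation factor Eif4b (-0.21 ± 0.20) and the poly(A) binding protein Pabpc1 (-0.17 ± 0.25) were the lowest. Of the 8 tested ribosome members with other names, 7 were above 0 (median 0.74), from Mrp63 (1.01 ± 0.69) with a CDS of 306 bases to Ptcd3 (-0.12 ± 0.23) with 2055 bases. Gnb2l1, named above as a subunit, was counted both in this list and in the non-ribosomal 5′TOP list, so the lists are not separate.

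Genes that make or regulate ribosomes had medians closer to 0. Of 36 tested biogenesis genes 23 were above 0 and 13 below (median 0.12, and 0.23 from their length bands), from Heatr1 (-0.88 ± 0.41 SE) with a CDS of 6429 bases to Nop10 (1.20 ± 0.63) with 192 bases. Of 7 tested mitochondrial translation factors 1, Tsfm, was above 0 (median -0.13). Of 17 tested regulators of growth 6 were above 0 (median -0.08, and -0.24 from their length bands). Mtor had -0.93 ± 0.49 and Larp1, which binds the 5′TOP tract, had -0.94 ± 0.46, both with long CDS (7710 and 3216 bases), while Myc had 0.10 ± 0.25 (SE).

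In α7E260A:G the same lists had medians near or below 0 after CS: -0.22 for the respiratory subunits (2 of 43 above 0), -0.10 for the other small complexes, -0.03 for non-ribosomal 5′TOP mRNAs, and -0.06 for biogenesis genes. Marker lists also moved with CS in α7G. The sums of the 5 epithelial markers (1213 to 1557 RPM in controls, 1584 to 1886 after CS), of the 5 T cell markers (528 to 617 and 691 to 820 RPM) and of the 5 fibroblast markers (1143 to 1323 and 1675 to 1693 RPM) were higher after CS without overlap. The sum of the 8 cell cycle markers was lower (437 to 502 and 333 to 378 RPM), and macrophage and alveolar type II sums overlapped. Their part in the ribosomal protein values was not tested.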

How the data were processed

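Per the labels, lungs were lavaged, distal lobes dissected, CD45+ cells depleted and stranded poly(A) libraries made. The authors aligned reads with STAR to mm9 (NCBIM37) and counted them on CDS with HTSeq and GENCODE M1. The tool versions and the treatment of reads with several genomic matches are not given in the sources used here. The deposited values are raw counts, with no normalization, for 22756 genes, all found in the GENCODE M1 annotation with the same identifier and symbol. CDS length is the union of annotated CDS.

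From these counts, genes with a mean of at least 200 counts were kept as in the study, without immunoglobulin, histocompatibility, Gm and ribosomal pseudogene names (132 genes past the mean), but with ribosomal proteins, which the study left out. Counts were tested with edgeR 4.0.16 (R 4.3.3), glmQLFit and glmQLFTest with TMM, over 4 groups and 8 libraries, with Benjamini-Hochberg adjustment over 7246 genes at 0.05. The SE was derived from the log2 fold change and F. Alternatives were DESeq2 1.42.0, library totals, TMM without members, other filters, a CDS length offset (lowess, other genes only), a block for sex, libraries of 1 genotype, and leaving out each library. Offsets by transcript length were added after seeing the data. Scripts were tested on simulated data. Python 3.11.15, pandas 2.3.3 and scipy 1.17.1 were used.

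Members and lists were chosen with earlier results of these data known. Genes named are, per comparison and class, the 3 highest and 3 lowest log2 fold changes, those past the threshold, the 3 highest and lowest levels, the shortest and longest CDS, and the paralogs and members with roles outside the ribosome; others were named after their values were seen. Sequences are from RefSeq (GRCm38.p6) and NCBIM37. Some items are not reported here.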

Additional observations from a re-analysis of the deposited data

Results flagged for a closer look

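Rows named as ribosomal protein pseudogenes were left out of every comparison. Among them, the row with most counts stood apart by genotype, and the others were only summed. Rps13-ps1, at chr8:89571619-89572074 on the + strand (NCBIM37), had 0, 0, 1 and 0 counts in the α7G libraries and 206, 352, 813 and 575 counts in the α7E260A:G libraries, in the order control male, CS male, control female and CS female. This is 51.7 ± 21.8 RPM (SD, n = 4) in α7E260A:G and 0.027 ± 0.053 RPM in α7G. It held 79.4% of the counts on such rows in α7E260A:G, and the other 55 rows summed to 62 to 211 counts per library. It was picked as the pseudogene row with most counts, after the values were seen, so the difference is a description with no test. The functional Rps13 had 99.8% of its windows elsewhere.

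In the 4 α7E260A:G libraries, a single library lay far from the other 3 for Rpl3 (the control male, gap over range 0.834), Mrpl3 (the control female, 0.936) and Mrps31 (the control male, 0.834). Chance picks out about 1 in 20 such groups where genes are not chosen by their values. Most of the 46 groups examined were of genes named for their values in these libraries. The rate does not apply to them, and these outliers are a description with no test. Mrpl52 was higher after CS in both α7G pairs and lower in both α7E260A:G pairs (interaction log2 difference -1.76 ± 0.88 SE, edgeR adjusted p = 0.995). Among the 21 genes examined for opposite responses, all taken from those named here, it was the only one to show this. Of the 59 tested mitochondrial members, 55 were higher in both α7G pairs (27.9% of all genes). In both α7E260A:G pairs 6 of them were lower (17.5% of all genes), so Mrpl52 was not the only member with this pattern. The share of all genes with the pattern is not given here. Mrpl52 had been named for its low values for CS in α7E260A:G and for the interaction, so the pattern is a description with no test. Its interaction was -2.52 to -0.56 over left-out libraries, the last without the α7E260A:G control female.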

How the results depend on the processing

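A length offset brought the medians closer to 0 for CS in α7G and for the interaction, but not for genotype, where the cytosolic median went from -0.10 to -0.19 with the CDS and -0.19 with the transcript offset. For CS in α7G the cytosolic median was 0.41 with a CDS length offset, alone or with a replicate block for sex, and 0.46 and 0.47 with a transcript length offset without and with the block. The mitochondrial values were 0.24 and 0.24, and 0.30 and 0.34. For the interaction the cytosolic values were -0.59 and -0.59, and -0.71 and -0.70, and the mitochondrial values -0.37 and -0.36, and -0.48 and -0.48. With library totals the interaction medians were -1.13 and -0.57. The mitochondrial interaction median was -0.84 by DESeq2, -0.82 with TMM factors from other genes, -0.77 with filterByExpr, -0.77 with all genes and -0.78 with the block alone. In genotype, 2 cytosolic members were called with the CDS offset (6.57% of all genes). With block and CDS offset 3 were called (Rps15a the third, adjusted p = 0.0473 by edgeR), with 9.12% of all genes. With the transcript offset 1 was called with or without the block. Without the block 4.24% of all genes were called there, and the share with the block is not given here. With the 4 α7G libraries alone, 44 cytosolic and 29 mitochondrial members were called higher for CS. In that fit 8.02% of all genes and 42.0% of the other genes with a CDS under 600 bases were called higher. Some fold changes for CS in α7G changed sign. Rpl24 was 0.058 and 0.049 and Rpl7l1 -0.17 and -0.17 with the CDS offset without and with the block. Mrpl3 was -0.022 and -0.020 with the CDS offset and -0.061 and -0.060 with the transcript offset, and -0.030 to 0.35 over left-out libraries (lowest without the α7G CS male). Mrps30 was -0.043 to 0.50 over left-out libraries (lowest without the α7G control male). The causes were not tested.

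Leaving out each library in turn gave cytosolic medians of 0.83 to 1.23 and mitochondrial medians of 0.54 to 0.97 for CS in α7G. For CS in α7E260A:G they were -0.94 to 0.93 and -0.61 to 0.68. For the interaction they were -2.10 to -0.060 and -1.27 to -0.029, and for genotype -0.72 to 0.17 and -0.35 to 0.23. Same-sex deviations correlated between groups with r from -0.14 to 0.84, with 3 of 6 values between 0.53 and 0.84. Sex is a labelled factor, but nothing in the labels ties same-sex libraries of different groups to shared animals or days, and each group has only 1 library per sex. The block alone called 0 members and 0.538% of all genes in genotype. With 2 libraries a group, and depth adequate for tested genes only, the 33 cytosolic and 17 mitochondrial members under 200 counts were not tested.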
